A study of Mus musculus with 4 samples.

Results

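A set of abundant structural RNA genes and the ribosomal RNA precursor was followed in RNA sequencing data from mouse embryonic fibroblasts (MEFs), 10 of 36846 gene symbols in the deposited RefSeq transcript table. They were taken by symbol, with earlier results of these data known. Among them were the 45S ribosomal RNA precursor Rn45s and the 28S ribosomal RNA Rn28s1. Also taken were the RNase P RNA Rpph1, the RNase MRP RNA Rmrp, the 7SK RNA Rn7sk and the telomerase RNA Terc. The rest were the U1 small nuclear RNAs Rnu1a1 and Rnu1b6, the U2 RNA Rnu2-10 and the U12 RNA Rnu12. All 10 were in the table, each with 1 transcript, and all 10 passed the filter on low counts. The libraries came from Dnmt3l-KO MEFs (2 libraries) and wild-type (WT) MEFs (2 libraries), all at passage 4 in DMEM with 10% FBS. Both kinds of line were made on a C57BL/6 background from embryos of day 13.5 to 14.5 whose parents were both Dnmt3l+/-, so the knockout embryos had parents with 1 working allele each. The Dnmt3l protein has no methyltransferase activity of its own and helps the enzymes that set new DNA methylation, and the study looked for genes that could bear on the better development of embryos cloned from the knockout cells. Whether replicate libraries stem from different embryos or lines is left unsaid by the labels, so each p-value reflects library-to-library spread, which may be technical.

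The total count was 51465395 and 40681328 in the Dnmt3l-KO libraries and 47776612 and 41049869 in the WT libraries. All 9 fibroblast markers examined were detected, with a summed level of 11050 to 16832 CPM, counts scaled to library size, in Dnmt3l-KO and 11640 to 13184 CPM in WT. Markers of leukocytes, epithelium, endothelium and skeletal muscle summed to 3.97 to 27.2 CPM per list in Dnmt3l-KO and to 5.80 to 17.0 CPM in WT. Germ cell and erythroid markers stayed under 0.53 CPM per list in each library, with Hba-a1, Hbb-bt, Alas2, Dppa3 and the leukocyte marker Adgre1 at 0. Dnmt3l itself had 0 counts in both Dnmt3l-KO libraries and 6 and 1 counts in the WT libraries, which is too few to check the genotype labels. Across the 14760 genes tested, edgeR's quasi-likelihood test called 3 between the genotypes, 0.0203% of them.

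These RNAs do their work as RNA and not as templates for protein. RNA polymerase I makes the long ribosomal precursor, which is cut into the 18S, 5.8S and 28S RNAs of the ribosome. RNase P trims the leader of transfer RNA precursors, its relative RNase MRP cuts the ribosomal precursor, 7SK RNA holds the elongation kinase P-TEFb in an inactive particle, U1, U2 and U12 find the ends and branch sites of introns, and telomerase RNA carries the template for telomere repeats. Most of these RNAs lack poly(A) tails, and the libraries were made from rRNA-depleted total RNA with random primers. Depletion acts directly on ribosomal RNA: for Rn45s and Rn28s1, the amount in the cells and the amount left after depletion cannot be told apart. In bulk RNA of this kind, fewer cells of a type and less RNA per cell cannot be told apart either.

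Sequences were found for 8 of the 10 RNAs in GENCODE release M21 on GRCm38, the same build as mm10, through their RefSeq accessions; none was used for Rn45s and Rn28s1. The pair of U1 RNAs is shown first because their counts depend on how reads were divided between near-identical copies. In the lines for Rnu1a1 (chr11:87422867-87423030, plus strand) and Rnu1b6 (chr3:96460024-96460189, minus strand), capitals mark the bases that differ in their alignment.
Rnu1a1: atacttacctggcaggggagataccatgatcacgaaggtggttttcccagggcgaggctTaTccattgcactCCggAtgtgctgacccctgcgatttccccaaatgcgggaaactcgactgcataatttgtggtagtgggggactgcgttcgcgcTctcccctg
Rnu1b6: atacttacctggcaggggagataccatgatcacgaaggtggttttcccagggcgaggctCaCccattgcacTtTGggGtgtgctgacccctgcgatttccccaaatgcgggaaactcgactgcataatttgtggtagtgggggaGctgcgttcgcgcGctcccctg
They were identical in 158 of 166 aligned columns (95.2%), with 6 mismatches and 2 gap columns. Both carry the stretch ACTTACCTG from base 3, which pairs with the 5′ splice site; 1.49% of 3883 short structural RNAs in GENCODE hold these letters on the RNA strand. In the next lines capitals mark the bases that pair with the intron branch site, GTAGTA in Rnu2-10 (chr11:101658238-101658428, plus strand) and AAGGAA in Rnu12 (chr15:83149644-83149794, plus strand).
Rnu2-10: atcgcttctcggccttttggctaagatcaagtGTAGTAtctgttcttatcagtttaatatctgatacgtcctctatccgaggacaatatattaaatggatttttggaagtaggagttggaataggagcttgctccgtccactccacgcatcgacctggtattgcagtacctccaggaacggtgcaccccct
Rnu12: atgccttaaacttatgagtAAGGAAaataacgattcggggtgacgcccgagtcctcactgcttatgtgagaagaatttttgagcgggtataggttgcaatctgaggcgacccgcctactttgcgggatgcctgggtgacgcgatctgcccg
These letters occur in 2.42% and 3.99% of the same short RNAs.

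Terc is shown because it had the smallest p of the 10 genes. Capitals mark the template CCTAACCCT, which 0.1% of the short RNAs hold. The GENCODE transcript lies at chr3:96414437-96414859 on the minus strand, 423 bases long, and its RefSeq counterpart is 397 bases long; its bases 1 to 300 are printed.
Terc: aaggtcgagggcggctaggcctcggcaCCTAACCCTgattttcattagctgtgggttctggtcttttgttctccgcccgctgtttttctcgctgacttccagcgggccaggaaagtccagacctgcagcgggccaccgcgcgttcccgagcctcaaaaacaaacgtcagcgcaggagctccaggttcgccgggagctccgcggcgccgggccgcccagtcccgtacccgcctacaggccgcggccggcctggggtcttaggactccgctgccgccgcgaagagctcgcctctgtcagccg
In Rn7sk (chr9:78175303-78175633, minus strand) capitals mark each GATC; such letters near the start of the RNA are known to form the binding site of HEXIM proteins, and 33.2% of the short RNAs hold at least 1 copy; bases 1 to 300 of its 331 are printed.
Rn7sk: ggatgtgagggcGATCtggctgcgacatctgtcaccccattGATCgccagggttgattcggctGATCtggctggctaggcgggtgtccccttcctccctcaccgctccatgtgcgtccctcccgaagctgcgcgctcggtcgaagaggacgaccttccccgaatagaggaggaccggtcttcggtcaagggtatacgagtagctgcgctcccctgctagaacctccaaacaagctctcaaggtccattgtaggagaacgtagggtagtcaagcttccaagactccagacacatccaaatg
Rpph1 (chr14:50807449-50807767, minus strand) and Rmrp (chr4:43492788-43493058, minus strand) are shown as the related catalytic RNAs, with their 2 longest shared stretches, of 9 bases each, in capitals; of Rpph1, bases 1 to 300 of its 319 are printed.
Rpph1: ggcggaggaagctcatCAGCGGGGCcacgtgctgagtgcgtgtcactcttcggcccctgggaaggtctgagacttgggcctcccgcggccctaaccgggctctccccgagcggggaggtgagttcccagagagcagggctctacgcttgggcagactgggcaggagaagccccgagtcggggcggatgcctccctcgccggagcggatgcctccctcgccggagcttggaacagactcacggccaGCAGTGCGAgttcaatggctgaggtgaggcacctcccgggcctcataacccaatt
Rmrp: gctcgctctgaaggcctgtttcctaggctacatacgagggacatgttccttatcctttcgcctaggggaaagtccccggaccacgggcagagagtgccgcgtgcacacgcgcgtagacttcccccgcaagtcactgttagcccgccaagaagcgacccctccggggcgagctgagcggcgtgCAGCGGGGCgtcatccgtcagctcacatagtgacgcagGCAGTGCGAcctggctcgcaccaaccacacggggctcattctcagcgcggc
The alignment of this pair was identical in 51.9% of its 339 columns. By the GENCODE annotation Rpph1 overlaps an exon of Ccnb1ip1 on the same strand, Rmrp an exon of Ccdc107 on the other strand, and Rnu1a1 lies in an intron of Tex14. Ccdc107 had 15.7 and 17.3 CPM in Dnmt3l-KO and 15.1 and 15.0 CPM in WT, far below Rmrp. Tex14 stayed at or under 0.1 CPM in each library. No level of Ccnb1ip1 was found to set beside Rpph1, so that overlap was not checked. The sources used here do not give whether counting used strand.

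The 10 genes together took 13.95% and 13.17% of all counts in Dnmt3l-KO and 14.8% and 13.92% in WT, with overlapping groups. Per length they weighed more: they held 33.7% and 32.2% of the summed FPKM (deposited fragment counts scaled to transcript length and library depth) in Dnmt3l-KO and 36.2% and 33.99% in WT. Rn45s ranked first and Rpph1 second of all symbols by count in each library. On the FPKM scale Rpph1 led, at 64944 ± 1359 FPKM in Dnmt3l-KO and 65269 ± 4997 FPKM in WT (mean ± SD, n = 2 each, as for all FPKM means here). Rmrp followed at 38142 ± 9130 FPKM in Dnmt3l-KO and 43113 ± 1103 FPKM in WT. Rnu2-10 had 31504 ± 9208 FPKM in Dnmt3l-KO and 40740 ± 6731 FPKM in WT. Rn7sk stood beside it, at 31613 ± 10388 FPKM in Dnmt3l-KO and 38208 ± 8467 FPKM in WT. The single libraries of these last 3 RNAs overlapped, so their order among themselves is not resolved, while each of their libraries lay below each library of Rpph1. Rnu1a1 came next at 15360 ± 2278 FPKM in Dnmt3l-KO and 18439 ± 2553 FPKM in WT. Rnu1b6 (4757 ± 1459 and 6433 ± 832 FPKM in Dnmt3l-KO and WT) and Rn45s (4931 ± 6.96 and 4525 ± 296 FPKM in Dnmt3l-KO and WT) overlapped, and Rn28s1 lay below both at 1778 ± 971 FPKM in Dnmt3l-KO and 2264 ± 531 FPKM in WT.

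Terc and Rnu12 do not belong with abundant RNAs in these libraries. Terc averaged 12.4 ± 1.01 FPKM in Dnmt3l-KO and 20.7 ± 0.234 FPKM in WT, and Rnu12 averaged 1.08 ± 0.571 FPKM in Dnmt3l-KO and 2.27 ± 0.445 FPKM in WT. By count, Terc ranked 9889 and 10334 among all symbols in Dnmt3l-KO and 8862 and 9089 in WT. U12, a spliceosomal RNA of minor introns, had 6 and 10 counts in Dnmt3l-KO and 21 and 13 counts in WT.

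**Figure D1:**
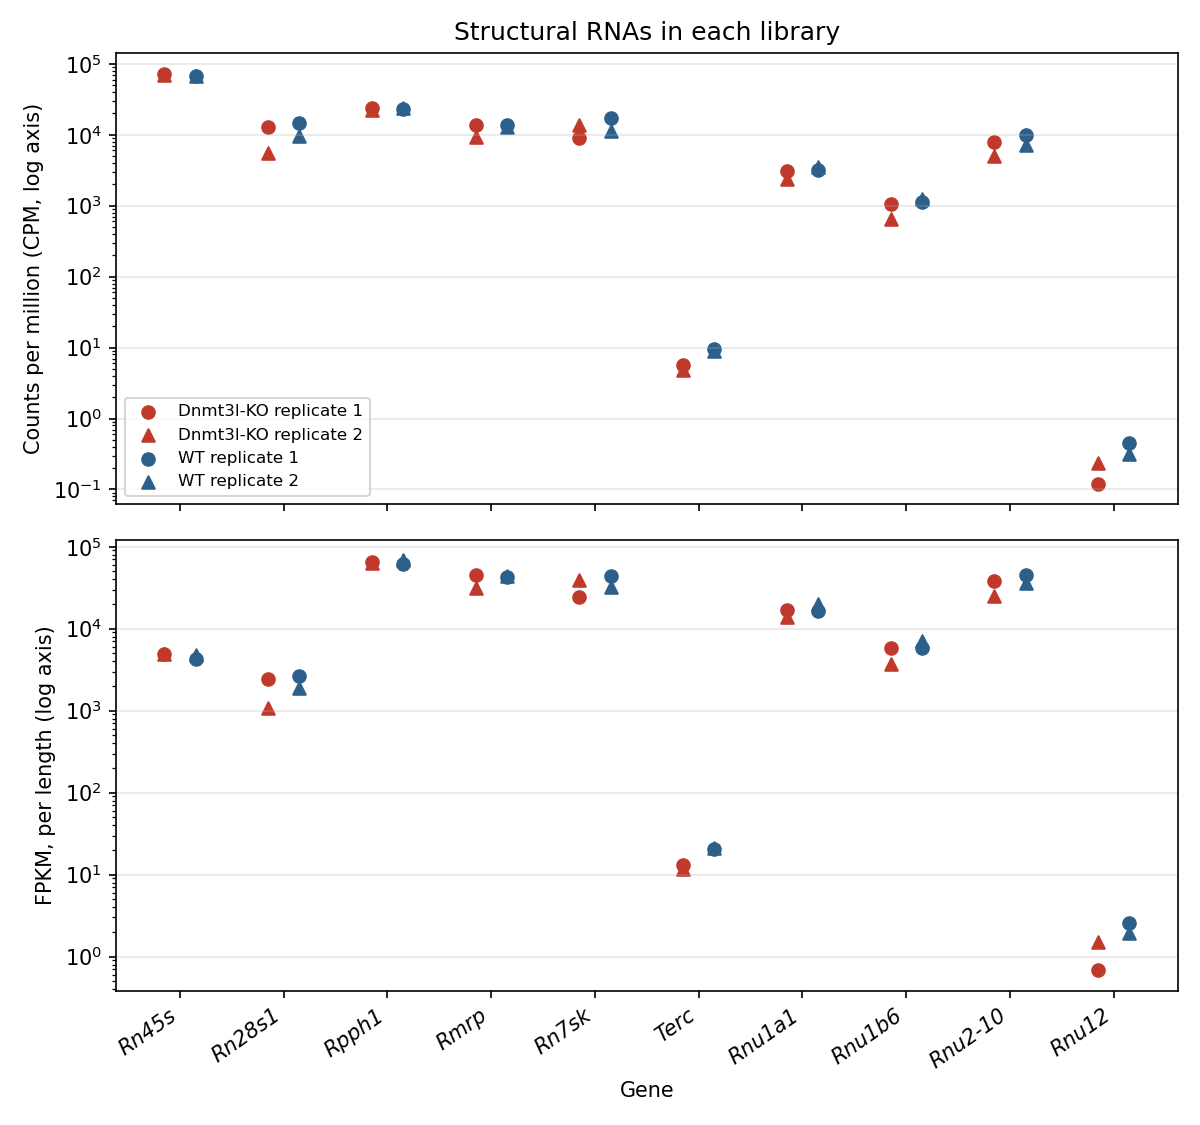
CPM (upper panel) and FPKM (lower panel) of the 10 genes on log axes, with Dnmt3l-KO in red to the left and WT in blue, circles for replicate 1 and triangles for replicate 2. Rn45s leads by CPM and Rpph1 by FPKM, while Terc stays under 10 CPM and Rnu12 under 1 CPM in every library.

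None of the 10 genes passed the test between the genotypes (edgeR's quasi-likelihood test, adjusted p = 0.999 for each), against 0.0203% of all genes. At an unadjusted p under 0.05 there was 1, Terc, against 4.15% of all genes, and DESeq2's Wald test called 0 as well. Among the 10, the count with such a p rose without Dnmt3l-KO replicate 1 and fell without WT replicate 1. It stayed the same when either other library was left out. Over all genes it rose without either Dnmt3l-KO library and fell without either WT library. Each of these fits has 1 library in a group. The log2 fold change, Dnmt3l-KO over WT, was negative for 9 of the 10 genes, against 48.7% of all genes. Its median was -0.36 over the 10 genes and 0.01 over all genes tested. These entries are not all independent: Rn28s1 shares sequence with Rn45s, and Rnu1a1 with Rnu1b6. With these pairs summed, and each entry given the value of its pair, 8 were negative and 2 positive, with a median of -0.34. Without Dnmt3l-KO replicate 2, 6 of the 10 were negative and the median was -0.13, and without Dnmt3l-KO replicate 1 it was -0.59 with 9 negative. Without WT replicate 1 and WT replicate 2 it was -0.17 and -0.50. With 2 libraries against 2, an exact two-sided permutation test of a single gene cannot give a p below 0.333.

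The ribosomal precursor was, with Rpph1, the most even of the 10 RNAs. Rn45s took 7.08% and 7.18% of the counts in Dnmt3l-KO and 6.64% and 6.86% in WT. In CPM, which are scaled with TMM factors, it had 72983 and 69839 in Dnmt3l-KO and 67348 and 67501 in WT. Both Dnmt3l-KO libraries lay above both WT libraries, as they did for 16.2% of all genes, at 0.08 ± 0.14 on the log2 fold change scale (SE; edgeR, adjusted p = 0.999), with a 95% interval from -0.28 to 0.44. Rn28s1, the large-subunit RNA, took 1.25% and 0.561% of the counts in Dnmt3l-KO and 1.43% and 0.966% in WT. Its level was 12864 and 5460 CPM in Dnmt3l-KO and 14536 and 9506 CPM in WT, so the groups overlapped and the second library of each genotype was the lower. The log2 fold change was -0.39 ± 0.45 (SE; edgeR, adjusted p = 0.999; 95% interval -1.57 to 0.78), and 0.10 without Dnmt3l-KO replicate 2.

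The 28S sequence is part of the 45S precursor, so a read from it can belong to either entry. The ratio of Rn28s1 to Rn45s counts was 0.176 and 0.0782 in Dnmt3l-KO and 0.216 and 0.141 in WT. Its spread within a genotype was wider than the gap between the genotype means of 0.127 ± 0.0694 in Dnmt3l-KO and 0.178 ± 0.0530 in WT (SD, n = 2 each). Summed, the pair had 85847 and 75299 CPM in Dnmt3l-KO and 81885 and 77007 CPM in WT, and the log2 fold change of the sum was 0.02 (edgeR, adjusted p = 0.999). The 18S RNA, Rn18s, and the 5S RNA, Rn5s, were listed at 0 in all 4 libraries, although the 18S sequence is also part of the precursor. The sources used here do not give how the authors' tools divided such reads, and the values of both entries are uncertain for that reason.

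The RNase P RNA varied little across the 4 libraries. Rpph1 had 23636 and 22002 CPM in Dnmt3l-KO and 23364 and 23791 CPM in WT, with overlapping groups. Its log2 fold change was -0.05 ± 0.13 (SE; edgeR, adjusted p = 0.999), with a 95% interval from -0.39 to 0.29. Rmrp, the RNA of the related enzyme, had 13534 and 9220 CPM in Dnmt3l-KO and 13556 and 12842 CPM in WT. Dnmt3l-KO replicate 2 stood below the other 3 libraries, which lay close together. The log2 fold change was -0.21 ± 0.21 (SE; edgeR, adjusted p = 0.999; 95% interval -0.76 to 0.34), and 0.035 without Dnmt3l-KO replicate 2. The ratio of Rmrp to Rpph1 counts was 0.573 and 0.419 in Dnmt3l-KO and 0.580 and 0.540 in WT.

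Rn7sk spread widely within both genotypes. It had 8891 and 13685 CPM in Dnmt3l-KO and 17086 and 11381 CPM in WT, so Dnmt3l-KO replicate 2 lay between the WT libraries. The log2 fold change was -0.33 ± 0.30 (SE; edgeR, adjusted p = 0.999; 95% interval -1.11 to 0.44). Against the mean of the WT libraries, Rn7sk was at -0.68 in Dnmt3l-KO replicate 1 and at -0.06 in replicate 2 on the log2 scale. The other short abundant RNAs of the set ran the other way, with replicate 2 the lower of the Dnmt3l-KO libraries.

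Terc, the template RNA of telomerase, had the smallest p of the 10 genes and ranked 49 of 14760 by p. It had 287 and 205 counts in Dnmt3l-KO and 448 and 368 counts in WT. That was 5.75 and 4.90 CPM in Dnmt3l-KO and 9.51 and 8.82 CPM in WT. Both Dnmt3l-KO libraries lay below both WT libraries, as they did for 16.5% of all genes. In CPM of the unscaled library total, the exact 95% binomial intervals were 4.95 to 6.26 and 4.37 to 5.78 in Dnmt3l-KO and 8.53 to 10.3 and 8.07 to 9.93 in WT, and did not meet; they cover counting error only. The log2 fold change was -0.78 ± 0.17 (SE; edgeR, unadjusted p = 0.00507, adjusted p = 0.999), with a 95% interval from -1.21 to -0.36. Adjusted over all genes it therefore did not pass, and the adjusted p ranged from 0.271 to 1 over the 17 alternatives, with a log2 fold change from -0.91 to -0.67. The authors' deposited comparison, made per transcript, gives Terc a log2 fold change of -0.62 with a p of 0.0288 and an adjusted p of 0.757. How it estimated fold changes was not examined, so the gap from -0.78 is not read as a smaller effect. Rnu12 was at -0.20 there and at -1.09 in edgeR, while Rn45s was at 0.08 in both. Relative to Rpph1 the Terc count was 0.000243 and 0.000223 in Dnmt3l-KO and 0.000407 and 0.000371 in WT.

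**Figure D2:**
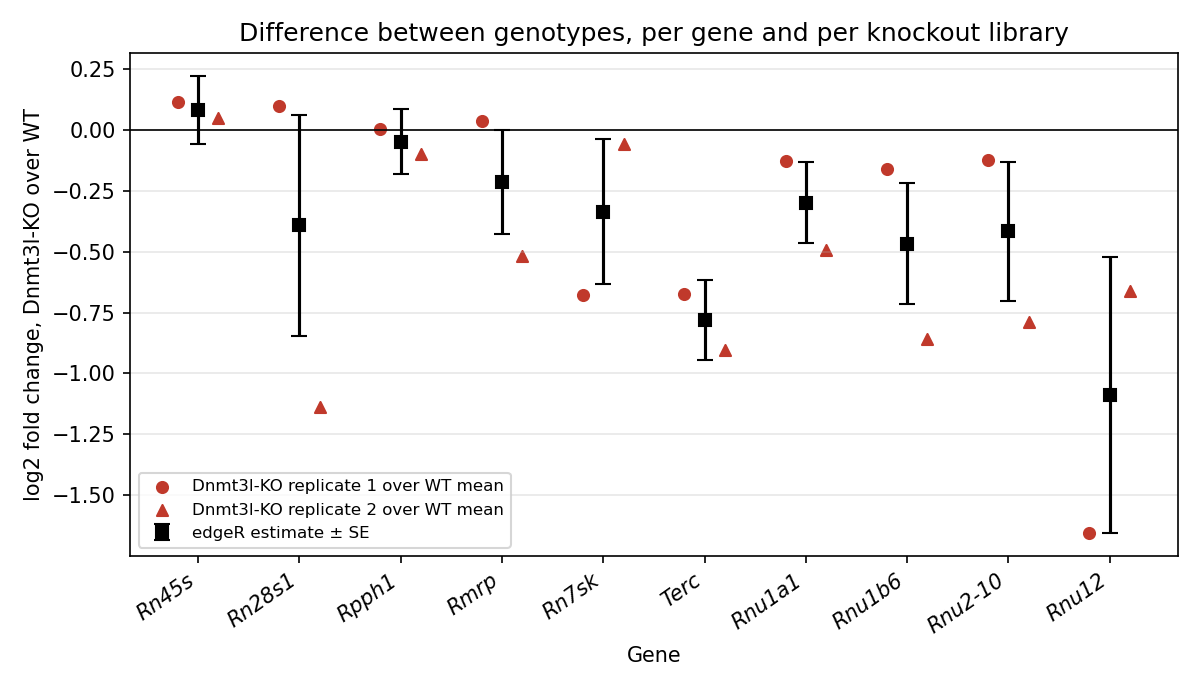
Log2 fold change, Dnmt3l-KO over WT, of the 10 genes: black squares with bars give the edgeR estimate ± SE, and red circles and triangles give Dnmt3l-KO replicates 1 and 2 over the mean of the WT libraries. For Terc both libraries lie near the estimate of -0.78, while for Rn28s1 they lie at 0.10 and -1.14.

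The U1 RNAs recognise the 5′ splice site and U2 the branch site of major introns. Rnu1a1 had 3071 and 2386 CPM in Dnmt3l-KO and 3177 and 3532 CPM in WT, a log2 difference of -0.30 ± 0.17 (SE; adjusted p = 0.999 in edgeR). Rnu1b6 had 1060 and 654 CPM in Dnmt3l-KO and 1130 and 1240 CPM in WT, a log2 difference of -0.47 ± 0.25 (SE; adjusted p = 0.999 in edgeR). For both, the Dnmt3l-KO libraries lay below the WT libraries, replicate 1 by little and replicate 2 by more. Rnu1b6 per Rnu1a1 count was 0.345 and 0.274 in Dnmt3l-KO and 0.356 and 0.351 in WT. Summed with the further copies Rnu1b1 and Rnu1b2, U1 came to 4465 and 3245 CPM in Dnmt3l-KO and 4593 and 5048 CPM in WT. Rnu2-10 had 7845 and 4945 CPM in Dnmt3l-KO and 9908 and 7159 CPM in WT. Its groups overlapped, and the log2 fold change was -0.42 ± 0.29 (SE; edgeR, adjusted p = 0.999). Rnu12 had 0.120 and 0.239 CPM in Dnmt3l-KO and 0.446 and 0.312 CPM in WT. Its binomial intervals, 0.0428 to 0.254 and 0.118 to 0.452 CPM of the library total in Dnmt3l-KO and 0.272 to 0.672 and 0.169 to 0.541 in WT, overlapped in 3 of 4 pairs of Dnmt3l-KO and WT libraries, and the log2 fold change, -1.09 ± 0.57 (SE; adjusted p = 0.999 in edgeR), rests on these few counts.

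The genotype groups did not overlap for 5 of the 10 genes: both Dnmt3l-KO libraries were below both WT libraries for Terc, Rnu12, Rnu1a1 and Rnu1b6, against 16.5% of all genes, and above them for Rn45s, against 16.2%. In CPM, Dnmt3l-KO replicate 2 was below replicate 1 for 8 of the 10, all but Rn7sk and Rnu12, against 49.3% of all genes. By share of the library total, Rn45s was instead higher in Dnmt3l-KO replicate 2, at 7.18% against 7.08%. The median size of the CPM difference between the Dnmt3l-KO replicates was 0.59 on the log2 scale over the 10 genes and 0.22 over all genes. In WT, replicate 2 was below replicate 1 for 6 of the 10, against 49.9%, with a median size of 0.14 over the 10 genes and 0.13 over all genes. Rn28s1 had the widest gap among the 10 in both genotypes, at -1.24 in Dnmt3l-KO and -0.61 in WT, and 5.09% and 9.41% of all genes were further apart. Among the 82 tested genes at least as abundant as Rnu1b6, the 8 members had a median biological coefficient of variation, edgeR's measure of spread between replicates, of 0.173, and the other 74 genes had 0.117. Of those 74, 75.7% were also lower in Dnmt3l-KO replicate 2 than in replicate 1. Small nucleolar RNAs with Snora or Snord symbols took 0.192% and 0.173% of the counts in Dnmt3l-KO and 0.422% and 0.318% in WT. These shares leave out the U3 RNAs. The part of such short RNAs in the values above was not tested.

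**Figure D3:**
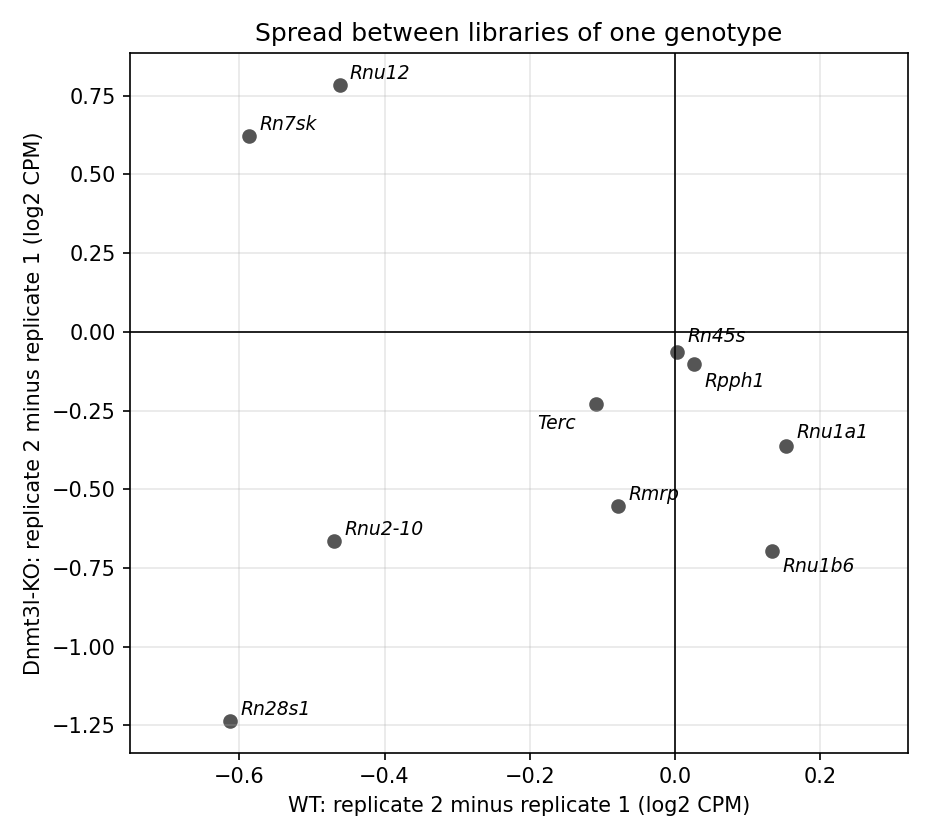
Difference between replicates 2 and 1 in log2 CPM, with Dnmt3l-KO on the vertical axis and WT on the horizontal axis, 1 point per gene. Rn45s and Rpph1 lie near 0 in both genotypes, Rn28s1 lies at -1.24 and -0.61, and Rn7sk changes sign, at 0.62 in Dnmt3l-KO and -0.59 in WT.

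By the distance between centred log2 CPM profiles over the 4 libraries, the genes closest to Rn45s were Gpkow (0.009) and Mta2 (0.014), and those closest to Rpph1 were Zc3h10 (0.010) and Nipa2 (0.011). For Rmrp they were Acot9 (0.039) and Atg16l1 (0.049), for Rn28s1 Lingo3 (0.093) and Tnnt2 (0.118), and for Rn7sk LOC102642406 (0.085) and Fbxo32 (0.093). For Terc they were Zic4 (0.079) and LOC102632885 (0.084), both under 1 CPM in each library. The nearest to Rnu1a1 were F730043M19Rik (0.046) and AI854703 (0.049), to Rnu1b6 Mctp2 (0.062) and 4930481A15Rik (0.064), to Rnu2-10 Rgs7bp (0.026) and LOC102634333 (0.057), and to Rnu12 Barx1 (0.180) and D530008I23 (0.214). Also under 1 CPM in each library were Lingo3, LOC102642406, F730043M19Rik, AI854703, 4930481A15Rik, Rgs7bp, LOC102634333 and D530008I23. With 14759 candidates and 4 libraries, close profiles are to be found for any gene, and these distances are given as a description.

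Of the 192 tested genes in 12 lists of proteins and RNAs that make, bind or accompany these RNAs, edgeR called 0, against 0.0203% of all genes, and 15 had an unadjusted p under 0.05, against 4.15%. That number rose without either Dnmt3l-KO library and fell without either WT library, as the count over all genes did. Each of these fits has 1 library in a group. For each list the genes with both Dnmt3l-KO libraries below both WT ones, or above them, are counted beside shares of 16.5% and 16.2% among all genes. All 16 subunits and factors listed for RNA polymerase I were measured. They had 6 positive and 10 negative log2 fold changes, a median of -0.05, 3 below and 0 above. Ubtf, the factor that keeps ribosomal genes open, had 66.7 ± 7.77 CPM in Dnmt3l-KO and 61.2 ± 2.29 CPM in WT (SD, n = 2 each, as below). The subunit Polr1c had 35.4 ± 2.08 CPM in Dnmt3l-KO and 40.7 ± 3.61 CPM in WT, and Taf1b, of the promoter selectivity factor, had 7.16 ± 0.355 CPM in Dnmt3l-KO and 7.98 ± 0.539 CPM in WT. Of 28 genes that process the precursor, 9 were positive and 19 negative, with a median of -0.05, 9 below and 3 above. The lowest p there belonged to Nol6, of the small-subunit processome, at 49.3 ± 4.96 CPM in Dnmt3l-KO and 40.2 ± 0.821 CPM in WT. Npm1, a nucleolar histone chaperone, had 504 ± 16.1 CPM in Dnmt3l-KO and 602 ± 56.6 CPM in WT, and the exosome nuclease Exosc10 had 40.4 ± 0.831 CPM in Dnmt3l-KO and 35.3 ± 1.44 CPM in WT.

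RNA polymerase III makes Rpph1, Rmrp and Rn7sk. The 22 subunits and factors listed for it had a median log2 fold change of -0.01. Of them 9 were positive and 13 negative, 5 below and 7 above. Gtf3c5 had 12.6 ± 0.974 CPM in Dnmt3l-KO and 10.3 ± 0.0238 CPM in WT, Brf1 had 15.1 ± 0.0587 CPM in Dnmt3l-KO and 12.7 ± 0.652 CPM in WT, and Polr3c had 17.1 ± 0.368 CPM in Dnmt3l-KO and 14.6 ± 0.422 CPM in WT. The 22 genes of snRNA transcription, in the SNAPc and Integrator complexes and their partners, had a median of 0.03, with 14 positive and 8 negative, 5 below and 7 above. The Integrator subunit Ints1 had 104 ± 7.19 CPM in Dnmt3l-KO and 86.3 ± 6.99 CPM in WT. Ints3 had 61.6 ± 3.76 CPM in Dnmt3l-KO and 52.3 ± 1.95 CPM in WT, and Cpsf3l, the catalytic subunit, had 41.0 ± 3.31 CPM in Dnmt3l-KO and 47.5 ± 0.606 CPM in WT.

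The 11 proteins of RNase P and RNase MRP were negative in 10 cases, with a median of -0.15, 6 below and 0 above. Pop4, which binds the RNA of both enzymes, had 4.89 and 14.4 CPM in Dnmt3l-KO and 33.4 and 19.7 CPM in WT (log2 fold change -1.47 ± 0.56 SE; edgeR, unadjusted p = 0.0473, adjusted p = 0.999). Rpp25l had 10.3 ± 1.25 CPM in Dnmt3l-KO and 12.5 ± 1.21 CPM in WT, and Rpp30 had 12.0 ± 1.18 CPM in Dnmt3l-KO and 13.9 ± 0.375 CPM in WT. In the list of the 7SK particle and P-TEFb, 5 of 8 genes were positive, with a median of 0.06, 1 below and 3 above. Mepce, which caps 7SK RNA, had 29.6 and 30.3 CPM in Dnmt3l-KO and 25.4 and 25.6 CPM in WT. Larp7, which binds its 3′ end, had 19.3 ± 1.39 CPM in Dnmt3l-KO and 23.1 ± 0.525 CPM in WT.

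The telomerase list was evenly divided, with 8 of 16 genes positive, a median of 0.02, 3 below and 6 above. The telomere binding protein Terf2 had 17.5 ± 1.52 CPM in Dnmt3l-KO and 14.6 ± 0.659 CPM in WT. Of the proteins that bind the H/ACA domain of Terc, Nop10 had 37.5 ± 10.4 CPM in Dnmt3l-KO and 50.1 ± 1.43 CPM in WT, and Gar1 had 9.65 ± 0.0442 CPM in Dnmt3l-KO and 8.18 ± 0.0935 CPM in WT. Among 20 proteins of the U1 and U2 particles 9 were positive, with a median of -0.08, 8 below and 6 above, and 4 had an unadjusted p under 0.05, 2 in each direction, against 4.15% of all genes. Sf3b6, which contacts the branch site, had 33.0 ± 0.180 CPM in Dnmt3l-KO and 41.3 ± 0.148 CPM in WT, while Sf3a2 had 25.8 ± 0.156 CPM in Dnmt3l-KO and 20.5 ± 0.650 CPM in WT. Snrpb2, the U2 B″ protein, had 27.2 ± 1.16 CPM in Dnmt3l-KO and 34.9 ± 2.43 CPM in WT.

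Genes of the Sm ring and of snRNA maturation were negative in 13 of 19 cases, with a median of -0.10, 10 below and 1 above, and 4 had an unadjusted p under 0.05, against 4.15% of all genes. Snrpg had 63.5 ± 0.225 CPM in Dnmt3l-KO and 78.3 ± 5.23 CPM in WT, and Snrpe had 71.6 ± 5.58 CPM in Dnmt3l-KO and 89.7 ± 4.18 CPM in WT. Gemin6, of the complex that loads the Sm ring, had 4.94 ± 0.801 CPM in Dnmt3l-KO and 7.26 ± 0.128 CPM in WT. The 8 proteins of the U11/U12 particle were negative in 7 cases, with a median of -0.13, 2 below and 0 above. Snrnp35 had 3.95 ± 0.124 CPM in Dnmt3l-KO and 4.88 ± 0.252 CPM in WT, Rnpc3 had 11.4 ± 0.0536 CPM in Dnmt3l-KO and 13.2 ± 1.36 CPM in WT, and Zrsr2 had 14.6 ± 2.87 CPM in Dnmt3l-KO and 16.7 ± 1.81 CPM in WT.

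**Figure D4:**
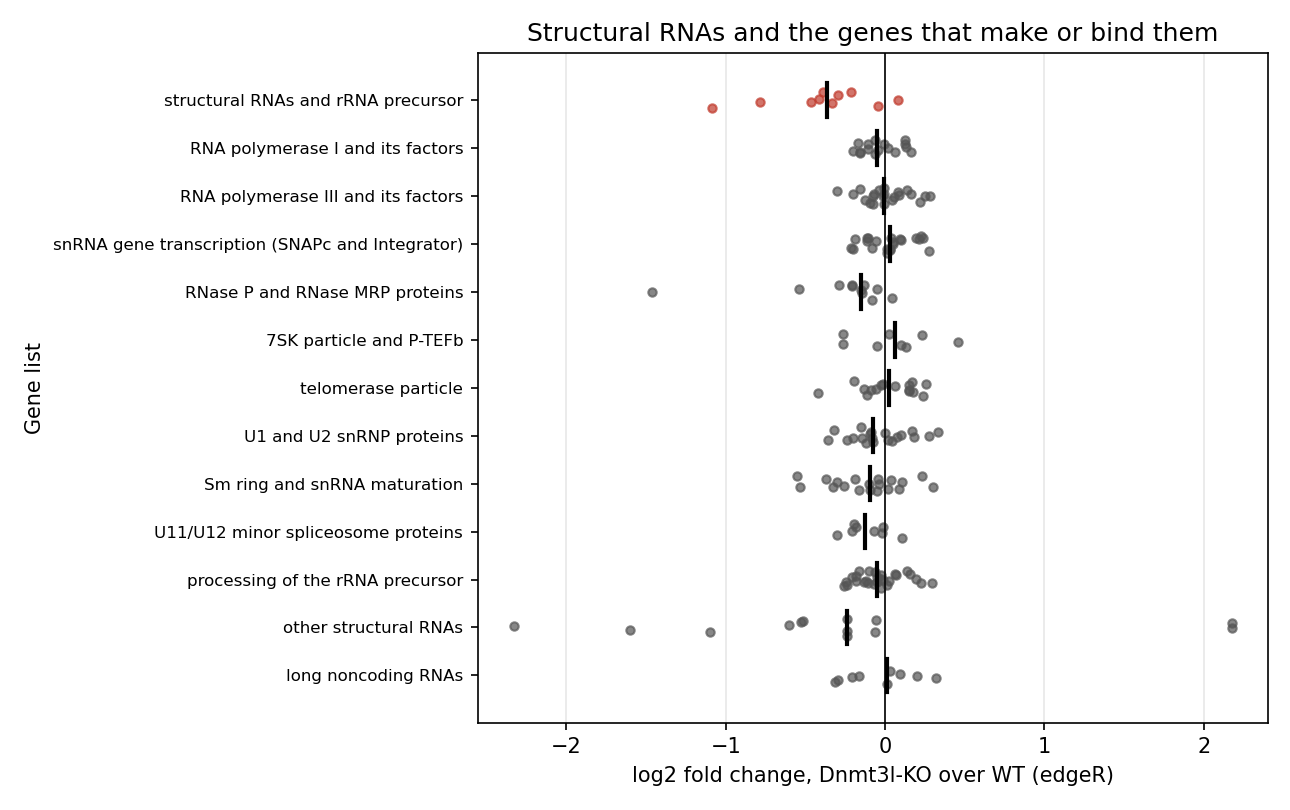
Log2 fold changes, Dnmt3l-KO over WT (edgeR), with 1 point per gene and a bar at each list's median; the 10 structural RNAs are in red in the top row and the 12 further lists are in grey. The structural RNAs have a median of -0.36, and the lists of proteins have medians from -0.15 to 0.06.

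Of 39 further structural RNAs listed, 31 were in the table and 13 passed the filter on low counts. These had 11 negative and 2 positive log2 fold changes, a median of -0.24, 3 below and 2 above. Entries with the same or nearly the same counts each entered these numbers. They were Rnu3b1 to Rnu3b3, Rnu1b1 with Rnu1b2, and Rn7s1 with Rn7s2, the 2 positive entries. Scarna13, a small Cajal body RNA of the kind that guides changes to snRNA bases, had 175 and 161 CPM in Dnmt3l-KO and 268 and 241 CPM in WT, a log2 difference of -0.60 ± 0.11 (SE; edgeR, unadjusted p = 0.00261, adjusted p = 0.999), and was called by DESeq2's Wald test (adjusted p = 0.0198). The U3 copies Rnu3b1, Rnu3b2 and Rnu3b3 had the same count within 1 read in every library, 9884 and 14268 in Dnmt3l-KO and 19937 and 8841 in WT for Rnu3b1. U3 guides early cuts of the ribosomal precursor. Rnu3b4, a further copy, had 22815 and 9605 counts in Dnmt3l-KO and 15532 and 47540 counts in WT. Summed, the 4 copies had 1051 and 1254 CPM in Dnmt3l-KO and 1600 and 1775 CPM in WT. Rnu1b1 and Rnu1b2 had 135 ± 45.3 CPM each in Dnmt3l-KO and 141 ± 4.20 CPM and 140.3 ± 3.46 CPM in WT. Bc1, a small cytoplasmic RNA known from neurons, had 169 and 109 CPM in Dnmt3l-KO and 754 and 87.8 CPM in WT, where 1 WT library set its mean. The 7SL entries Rn7s1 and Rn7s2 had 14 and 24 counts each in Dnmt3l-KO and 1 and 7 counts in WT, and 13 of the 31 symbols, among them the Y RNAs Rny1 and Rny3 and the U6 RNA Rnu6, were at 0 in all 4 libraries. Of the 9 tested long noncoding RNAs in the list, 5 were positive, with a median of 0.01, 2 below and 0 above. The small nucleolar RNA host genes Gas5, Snhg1 and Snhg12 had 41.3 ± 1.76, 17.3 ± 0.433 and 14.5 ± 2.52 CPM in Dnmt3l-KO and 51.4 ± 2.19, 21.2 ± 1.77 and 16.7 ± 4.15 CPM in WT.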

How the data were processed

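RNA from 4 libraries, 2 of Dnmt3l-KO and 2 of WT MEFs, had been depleted of ribosomal RNA and amplified by 12 PCR cycles, per the labels' protocols. Per the file headers, the deposited table gives an estimated count and an FPKM value per RefSeq transcript and library, and the authors' comparison with a mean signal, a log2 fold change, a test score and a p-value. The estimated counts were whole numbers. The build (mm10) and eXpress 1.4.1, TopHat2 2.0.12, DESeq2 1.8.0 and Cufflinks 2.2.1 are listed, with no roles, in the submitters' processing notes.

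Counts were summed per symbol, read as the last bracketed word before a comma in the description, and tested over 14760 symbols with edgeR 4.0.16 in R 4.3.3 (filterByExpr, TMM, robust quasi-likelihood F-test, Benjamini-Hochberg over all symbols, threshold 0.05). CPM use TMM library sizes, and standard errors come from the F statistic. The members and lists were chosen with earlier results of these data known. Named were the 10 genes, the 3 with the smallest p of each list (the 8 most abundant for other structural RNAs) and the 2 nearest profiles per member; genes overlapping a member and counts of copies were added after their values were seen. A gene that this rule names is not reported here. Alternatives used DESeq2 1.42.0 and limma 3.58.1 (voom, or log2(FPKM + 1) and log2(FPKM + 0.1)), other scalings and filters, single transcripts, summed pairs, the replicate number as a block and each library left out. The fit was tested on simulated data. No test of gene sets was run.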

Additional observations from a re-analysis of the deposited data

How the results depend on the processing

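No member passed the threshold in any of the 17 alternatives to the edgeR fit. Of their log2 fold changes, those of Rn45s, Rn7sk, Terc, Rnu1a1, Rnu1b6 and Rnu2-10 kept their sign in all 17, and Rnu12 in the 16 that kept it, but their size moved without 1 library: from -0.68 to -0.01 for Rn7sk, from -0.79 to -0.12 for Rnu2-10, from -0.86 to -0.16 for Rnu1b6, from -0.49 to -0.13 for Rnu1a1, from -1.64 to -0.66 for Rnu12 and from 0.05 to 0.11 for Rn45s. Without 1 library, the values ran from -1.14 to 0.10 for Rn28s1, from -0.52 to 0.035 for Rmrp and from -0.10 to 0.002 for Rpph1, each turning positive without Dnmt3l-KO replicate 2. Summed with Rn45s, Rn28s1 was at 0.02. The cause was not tested, beyond the sum being mostly Rn45s reads. Terc ran from -0.91 to -0.67 without 1 library; leaving out WT replicate 1 gave an unadjusted p of 0.0516.

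The count of all genes called, 3 in edgeR, was 8 with no filter, 1 with at least 10 counts in every library, 32 in DESeq2's Wald test, 6 in limma with a pseudocount of 1 FPKM, 9 with one of 0.1 FPKM, 1 with single transcripts as features, and 2 to 6 without 1 library. Among the partner genes DESeq2 called 1, Scarna13, where edgeR called 0. The share of counts in the 10 genes, Dnmt3l-KO minus WT, was -0.80 percentage points, with overlapping groups, and that of the summed FPKM -2.17. Leaving out Dnmt3l-KO replicate 1 or 2 gave -1.19 or -0.41 points of the counts, and leaving out WT replicate 1 or 2 gave -0.36 or -1.23. The replicate number as a replicate block called 4 genes and 0 members, with Terc at -0.79; nothing in the labels says that the numbers pair libraries, and the correlation of the replicate differences in Dnmt3l-KO and in WT was 0.1 over 14760 genes. Depth limits Rnu12, with 6 to 21 counts per library. For the RNAs at 0 a count of 3 is the floor, and the cause of their 0 counts was not tested.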
